A study of Mus musculus with 31 samples.

Results

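Skin tumors grown from the parental 20967 melanoma line were compared with the same line grown in dishes, using 8 of the 31 samples of the series. The 5 control-treated parental tumors and the 3 control-treated parental cultures were picked by those labels and normalised together. The comparison asks which RNA in a whole tumor is near zero in the cultured cancer cells, and which genes of the cultured cells stand at another level in tumors. The series as a whole addresses how glucocorticoids act on melanoma through GARP, the product of *Lrrc32*, and TGF-β, in the parental line and in a GR KO derivative made by CRISPR-Cas9 against the glucocorticoid receptor gene *Nr3c1*. The 20967 line comes from a melanoma of C57BL/6 mice with a mutant *Nras* allele switched on by an inducible Cre under the tyrosinase promoter, and both groups carry these alleles and no receptor knockout. Tumors arose after intradermal injection into immune-competent wild-type C57BL/6 mice and received an emollient cream as control. Cultures received the DMSO vehicle for 48 h. The labels give no age for the mice, and they give the 3 cultures the same date and do not say whether these were grown independently, so the adjusted p-values measure the spread between samples. Growth in the skin, cream against DMSO and collection from tissue or from a dish all differ between the groups in the same way and cannot be told apart.

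The values are 3′-end mRNA counts, which do not scale with transcript length. Total counts were 15528066, 19649621, 17750913, 16865315 and 26386770 in tumors 1 to 5 and 15121571, 16743983 and 16648617 in cultures 1 to 3. Levels are given as CPM, counts scaled to a common library size with TMM factors over these 8 samples, in the order tumor 1 to tumor 5 and culture 1 to culture 3. A gene at 0 in all 3 cultures was given a floor of 3 counts over the cultures together, which is 0.0663 CPM, and intervals and floors cover counting error only. Correlations of log CPM over genes were 0.957 to 0.968 on average between a tumor and the other tumors and 0.978 to 0.986 between cultures, with genes not being independent replicates. Tumor 5 and culture 2 had the lowest values in their groups, and values without a single sample are given where leaving it out ended or made a call of a gene at 0.5 CPM or more in every culture or moved a value by more than 1.5-fold.

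A solid tumor is a mixture of cancer cells with leukocytes, fibroblasts, vessels and, in the skin, keratinocytes, nerve, fat and muscle, and its RNA is the sum of all of them. Cultured cancer cells have none of these neighbours and divide in rich medium with ample oxygen, serum and amino acids. In tissue, cancer cells also meet interferons from immune cells, which raise antigen presentation, circulating corticosteroids, and latent TGF-β, which GARP tethers at the cell surface until it is activated.

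Of 14662 genes that passed the filter (at least 0.5 CPM in at least 3 of the 8 samples), 7999 (54.6%) were called in edgeR, with an adjusted p under 0.05 and a fold change of at least 1.5. Higher in tumors were 5026 (34.3%) and lower 2973 (20.3%), and the median log2 difference of tumors minus cultures was 0.26. Tumors lay wholly above cultures for 4735 genes and wholly below for 3198. Each gene was put in 1 of 3 classes by its culture counts alone: 1715 genes were absent from culture, with at most 3 counts in each culture, 8396 were shared, with at least 5 CPM in each culture, and 4551 were low. An absent gene can pass the filter only through the tumors, so that its difference is a description and no test, and 1667 of the 5026 genes called higher were of this class. Of the 4551 low genes, 1709 reached 0.5 CPM in fewer than 3 cultures and so passed with the help of the tumors, and 804 of these were called higher and 2 lower. Calls of list members between parental tumors and cultures are therefore counted over shared members alone, which pass the filter by the cultures. That class admits genes near 0 in tumors but none near 0 in cultures, so by construction its calls can favour falls. List shares are for this reason set beside those of all shared genes, and falls to near 0 in tumors are a description as well. Absent genes made up 3.42, 3.56, 3.41, 3.70 and 3.87% of the counts of tumors 1 to 5 and a mean of 0.00206% in cultures. In tumors it was 3.59% ± 0.194 (SD, n = 5). Genes of the low class took 5.22% ± 0.300 of tumor counts and 1.02% ± 0.134 of culture counts, and shared genes 91.1% and 98.9%. Absent genes thus give only the part of host RNA that the cancer cells do not make, since collagens and other genes of host cells can be shared, and an absent gene can also be switched on in cancer cells in the skin.

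Among the 8396 shared genes, 1674 (19.9%) were called higher and 2701 (32.2%) lower, and 4021 were not called (median log2 -0.21). The direction of this tilt depended on scaling. With scaling factors taken from the shared genes alone, the median over all genes moved up by 0.24 to 0.50, the median of the shared genes was 0.03, and 2248 shared genes (26.8%) were higher and 2014 (24.0%) lower. Shifts of list medians are therefore read against the median of the same class of genes, and shared genes near 0 have no direction that holds under both scalings. Mitochondrially encoded RNA took 1.46, 2.47, 1.25, 1.35 and 1.46% of counts in tumors and 0.780, 0.719 and 0.740% in cultures. It was highest in tumor 2, and every tumor was above every culture. Genes at 0.5 CPM or more numbered 14262, 14411, 14427, 14443 and 13992 in tumors and 12048, 11936 and 12037 in cultures.

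Because the label names melanoma, the melanocyte list was read first. *Mitf*, the master regulator of melanocytes, stood at 37.5, 48.6, 25.5, 27.4 and 25.6 CPM in tumors and 9.25, 11.1 and 12.4 CPM in cultures. Every tumor lay above every culture, and the gene was called higher (log2 1.59, edgeR adjusted p 0.000318). *Sox10*, which specifies the neural crest lineage, stood at 2.01, 2.37, 2.55, 2.14 and 0.528 CPM in tumors, and *Dct*, a melanin enzyme, at 6.34, 3.73, 6.30, 6.46 and 0.188 CPM. Both had 0 counts in every culture, and tumor 5 was the lowest tumor for both. The endothelin receptor gene *Ednrb* had 10.5, 14.7, 11.8, 15.2 and 10.9 CPM in tumors and 0 in the cultures. *Tyr*, the rate-limiting enzyme of pigment, had 0 counts in all 8 samples, *Tyrp1* had 0 in the cultures and at most 12 in a tumor, and *Pax3* had at most 10 in any sample; none of these passed the filter. In all, 10 of 18 members passed the filter, 6 of them absent from culture, 3 low and 1, *Mitf*, shared. The defining pigment markers other than *Mitf* were therefore at or near 0 in the cultured line, and whether the tumor signal comes from the cancer cells or from melanocytes of the skin was not tested.

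Genes known from dedifferentiated or neural-crest-like melanoma were in part expressed by the cultured line and in part at or near 0 there. *Sox9*, a transcription factor of neural crest and cartilage, stood at 853, 764, 594, 663 and 902 CPM in tumors and 410.3, 289 and 377 CPM in cultures. All tumors were above all cultures (log2 1.07, edgeR adjusted p 0.000682). *Egfr*, a growth factor receptor, had 25.5, 32.2, 37.5, 34.6 and 33.7 CPM in tumors and 5.32, 5.22 and 6.42 CPM in cultures, again with no overlap (log2 2.53, edgeR adjusted p 1.74e-06). *Axl*, a receptor kinase of the dedifferentiated state, went the other way, with 439.9, 681, 386, 425 and 561 CPM in tumors and 1116, 1343 and 1051 CPM in cultures (log2 -1.23, edgeR adjusted p 0.000275). Each tumor was below each culture. *Tfap2b*, a neural crest transcription factor, had 6.53, 7.66, 5.37, 10.3 and 2.37 CPM in tumors and 0 counts in cultures, at least 97.3-fold higher, and *Erbb3*, a neuregulin receptor, had 3.75, 1.94, 4.27, 4.27 and 6.37 CPM in tumors and 1 culture count. The stem cell factor *Sox2* was likewise below in every tumor, at 13.0, 15.9, 6.93, 7.34 and 7.99 CPM against 19.4, 32.1 and 24.2 CPM (log2 -1.30, edgeR adjusted p 0.00310). *Ngfr*, a neurotrophin receptor, was at 0, 1.74, 5.42, 6.08 and 0 CPM in tumors and 0, 0.475 and 0 CPM in cultures. It was at 0 in tumors 1 and 5, and its fitted log2 of 4.02 became 4.32 without tumor 1, 4.35 without tumor 5 and 8.63 without culture 2, the last against cultures at 0 and so no bound. Of 18 members 17 passed the filter, and of the 12 shared ones 7 were called higher and 2 lower (58.3% and 16.7%, beside 19.9% and 32.2% of all shared genes), with a median log2 of 0.65 beside -0.21. In whole tumors, host cells can add to members of this list, and their part in these levels was not tested.

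Leukocyte genes were present in every tumor. *Ptprc*, the CD45 phosphatase of all white blood cells, had 52.1, 67.8, 30.2, 57.3 and 23.4 CPM in tumors 1 to 5 and 0 counts in the cultures. Tumors 3 and 5 were lowest, and the mean was at least 697-fold above the floor. *Cd52*, a lymphocyte and macrophage surface peptide, had 608, 423, 471, 566 and 329 CPM and 0 in culture, at least 7236-fold higher. The actin-bundling gene *Lcp1* had 120.5, 167, 209, 243 and 174 CPM in tumors and 0 in culture, at least 2755-fold higher, and tumor 1 was lowest here. *Laptm5*, a lysosomal protein of blood cells, stood at 555, 502, 416, 576 and 554 CPM against 0.552, 0.271 and 0.623 CPM (fitted log2 10.05). All 5 tumors were far above the cultures. *Coro1a*, an actin regulator, had 50.6, 31.9, 79.4, 61.7 and 54.4 CPM in tumors and 1 count over the 3 cultures, a ratio with a 95% counting interval of 452 to 99425. The exception was *Arhgdib*, a gene usually strong in blood cells, at 265, 417, 260.4, 325 and 285 CPM in tumors and 253, 340.1 and 264 CPM in cultures. Its groups overlapped and it was not called (log2 0.12, edgeR adjusted p 0.634). It was the single shared member of 12, and 6 members were absent from culture and 5 low. The summed list was 1895, 1876, 1695, 2094 and 1613 CPM in tumors and 254, 341 and 265 CPM in cultures, most of the latter from *Arhgdib*. In bulk samples, more cells of a type and more RNA per cell cannot be told apart, and neither can fewer cells and less RNA per cell.

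T and NK cell genes differed more between tumors. *Cd3e*, a signalling chain of the T cell receptor, had 14.7, 5.96, 9.12, 13.9 and 3.81 CPM in tumors, and *Cd3d* had 54.3, 41.4, 24.7, 28.7 and 15.9 CPM. Tumor 5 was lowest for both, tumor 1 highest, and both had 0 counts in culture. *Cd3g* had 3.10, 0.824, 2.87, 3.18 and 1.73 CPM and 0 in culture. The adhesion receptor *Cd2* had 60.3, 50.5, 43.7, 80.4 and 40.7 CPM in tumors, at least 832-fold above the culture floor. *Icos*, a costimulatory receptor and the most abundant member, had 77.0, 53.0, 51.2, 61.7 and 40.1 CPM in tumors and 0 in culture, at least 854-fold higher. Tumor 5 was lowest again. *Tcf7*, a factor of naive and stem-like T cells, had 0.388, 0.824, 0.782, 1.31 and 1.13 CPM in tumors and 0.759, 0.814 and 0.374 CPM in cultures. These values overlapped and the gene was not called. Of 23 members 21 passed the filter, 18 of these absent from culture and 3 low. The summed list was 379, 302, 246, 352 and 192 CPM in tumors, the highest being 1.97 times the lowest, and 0.897, 1.36 and 1.25 CPM in cultures. B and plasma cell genes were scarce: *Cd79a* did not pass the filter, and 3 of 9 members did, 2 of them absent from culture and 1 low. *Cd79b*, a B cell receptor chain, had 9.70, 4.60, 7.97, 7.78 and 6.41 CPM in tumors and 2 counts over the cultures, a ratio with an interval of 45.7 to 1363. The plasma cell gene *Mzb1* had 1.03, 0.630, 0.782, 0.164 and 0 CPM in tumors and 0 in cultures, with tumor 1 highest and tumor 5 at 0. The inhibitory receptor *Cd22* had 2.01, 2.47, 1.72, 1.04 and 1.81 CPM in tumors and 0.276, 0 and 0 CPM in cultures, and the summed list was 13.1, 9.84, 10.9, 10.2 and 8.59 CPM in tumors and 0.276, 0 and 0.561 CPM in cultures, with *Cd79b* the largest part.

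Macrophage genes were the most abundant of the leukocyte lists. *C1qa* and *C1qb*, chains of complement C1q, are made by tissue macrophages, and *C1qa* headed the absent class. *C1qa* had 2896, 2502, 2191, 2767 and 1684 CPM in tumors and 1 count over the 3 cultures, and *C1qb* had 1599, 1619, 1184, 1188 and 1291 CPM, also with 1 culture count. Their ratios had counting intervals from 19569 and from 11186 upward, and tumor 5 was lowest for *C1qa* and tumors 3 and 4 for *C1qb*. *Csf1r*, the receptor for the macrophage growth factor, had 417, 681, 319.7, 309 and 267 CPM in tumors and 1.04, 0.407 and 0.748 CPM in cultures (fitted log2 9.08). Tumor 2 was highest and every tumor was above every culture. *Adgre1*, which encodes F4/80, was even across tumors at 85.9, 84.8, 102, 97.5 and 90.1 CPM and had 0 culture counts, at least 1390.3-fold higher. The lysosomal gene *Cd68* had 49.1, 76.2, 73.3, 49.6 and 87.0 CPM in tumors and 1.79, 1.02 and 3.49 CPM in cultures (log2 4.98, edgeR adjusted p 6.75e-07). No tumor met a culture for either gene. The calcium-binding *Aif1* had 469.7, 429, 298, 519 and 251 CPM in tumors and 0 counts in cultures, at least 5935-fold higher. *Ctss*, a lysosomal protease of antigen-presenting cells and not a list member, had 596, 830.3, 442, 600.3 and 409 CPM in tumors and 3 counts over the cultures. Tumor 5 was lowest for *Aif1* and *Ctss*. A marker broke the pattern: *Fcer1g*, the Fc receptor gamma chain, had 564, 624, 489, 401 and 647 CPM in tumors and 291, 321 and 235 CPM in cultures. All tumors were higher (log2 0.95, edgeR adjusted p 0.00175), but the cultured line itself expressed the gene. Of 22 members 14 were absent from culture, 7 low and 1, *Fcer1g*, shared. The summed list was 7884, 8770.0, 6209.5, 7177 and 6062 CPM in tumors and 299.7, 324 and 244 CPM in cultures.

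MHC class II genes, which present peptides to CD4 T cells, followed macrophages in level. *Cd74*, the invariant chain, had 1978, 1763, 1654, 1811 and 687 CPM in tumors and 1 count over the cultures. Tumor 5 held less than any other tumor. *H2-Aa* and *H2-Ab1* encode the alpha and beta chains of the class II molecule. *H2-Aa* had 673, 1376, 716, 1367 and 687 CPM, with 1 culture count, and *H2-Ab1* had 1939, 1741, 1388, 1805 and 1227 CPM, with 3 culture counts. *H2-Aa* was high in tumors 2 and 4, whereas *H2-Ab1* was highest in tumor 1. *H2-DMb1*, which loads peptide, had 296, 297, 186, 266 and 175 CPM and 0 in culture, at least 3679-fold higher. Of 10 members 8 were absent from culture and 2 low, and the sums were 5580.5, 6176, 4542, 5912 and 3220.0 CPM in tumors and 2.90, 3.93 and 2.56 CPM in cultures. Dendritic cell genes were lower in level. *Flt3*, a growth factor receptor of dendritic cells, had 0.647, 1.07, 3.80, 4.77 and 4.56 CPM and *Xcr1*, a chemokine receptor of cross-presenting cells, had 3.62, 2.67, 0.834, 2.52 and 0.716 CPM, both with 0 culture counts. The T cell attracting chemokine *Ccl17* had 124, 118, 74.8, 70.3 and 46.3 CPM in tumors and 0.138, 0.271 and 0 CPM in cultures, and *Ccl22* had 31.7, 14.97, 21.1, 21.1 and 13.7 CPM in tumors and 0 in culture. Tumors 1 and 2 were highest for *Ccl17* and tumor 5 was lowest. The homing receptor *Ccr7* had 9.64, 6.64, 12.3, 13.6 and 8.93 CPM in tumors and 0 in culture. Of 12 members 10 passed, *Clec9a* not being among them, with 7 absent from culture, 2 low and 1 shared (summed level 303, 297, 218, 251 and 162 CPM in tumors and 14.2, 12.7 and 11.2 CPM in cultures).

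Granulocyte genes divided the tumors most. The calprotectin genes *S100a8* and *S100a9*, which neutrophils carry in bulk and stressed keratinocytes also make, had 0 counts in culture. *S100a8* had 11.5, 41.5, 129.9, 11.9 and 712 CPM and *S100a9* had 5.56, 21.03, 104, 8.44 and 574 CPM in tumors 1 to 5. Tumor 5 was far above the others and tumors 1 and 4 were lowest. The mean of *S100a8* was at least 2736-fold above the floor with all tumors and at least 735-fold without tumor 5, and that of *S100a9* at least 2152-fold and 525-fold. The gelatinase gene *Mmp9* had 149, 545, 585, 164 and 846 CPM in tumors and 0.345, 0 and 0.0623 CPM in cultures. It was again highest in tumor 5 and lowest in tumors 1 and 4. *Csf3r*, the receptor for the neutrophil growth factor and a defining marker, did not share this order, with 2.78, 1.41, 6.15, 6.96 and 1.32 CPM in tumors and 0 in culture. It was lowest in tumors 2 and 5. The granule genes *Camp* and *Ngp* and the surface marker *Ly6g* did not pass the filter, 10 of 13 members did, and 8 of these were absent from culture and 2 low. The summed list was 201, 701, 900.4, 242 and 2208 CPM in tumors, with a mean of 851 CPM with and 511 CPM without tumor 5, and 1.38, 0 and 0.935 CPM in cultures. Mast cell proteases were steadier in sum. *Mcpt4* had 52.3, 43.2, 37.9, 53.1 and 48.9 CPM, *Cma1* had 18.1, 32.0, 7.82, 25.7 and 41.7 CPM and *Tpsb2*, a tryptase, had 77.9, 69.5, 57.0, 49.2 and 67.9 CPM. The carboxypeptidase *Cpa3* had 19.5, 26.5, 20.999, 22.8 and 53.3 CPM, highest in tumor 5. None of the mast cell members had a count in culture, and 5 of 6 passed the filter, by the tumors alone, the summed level being 169, 171, 125, 151 and 214 CPM in tumors.

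Stromal genes split between absent and shared. *Col1a1* and *Col1a2* encode the chains of type I collagen. *Col1a1* had 1939, 2174, 2297, 2149.6 and 2373 CPM in tumors and 48.7, 28.8 and 29.4 CPM in cultures, and *Col1a2* had 1723, 1424, 1018, 1564 and 1291 CPM and 4.42, 3.46 and 6.67 CPM. All tumors were above all cultures, by a log2 of 5.94 and 8.17 (edgeR adjusted p 9.24e-09 and 6.21e-09). *Col3a1*, the fibrillar collagen of young scar, had 2598, 3276, 3087, 3128 and 2813 CPM in tumors and 243, 154 and 221 CPM in cultures (log2 3.85, edgeR adjusted p 4.69e-08). *Col6a3*, a microfibril collagen, was uneven, with 380.1, 559.9, 1214, 1074 and 1184 CPM in tumors and 47.4, 19.3 and 51.0 CPM in cultures. Tumors 1 and 2 were lowest, yet above each culture (log2 4.49, edgeR adjusted p 7.97e-06). The fibroblast surface gene *Thy1* had 150.2, 113, 147, 113 and 91.2 CPM and the adventitial fibroblast gene *Pi16* had 61.5, 48.3, 38.4, 51.9 and 56.0 CPM, both with 0 counts in culture and so at least 1854-fold and 773-fold higher. Of 24 members 6 were absent from culture, 6 low and 12 shared, and of the shared ones 11 were called higher (91.7%, beside 19.9% of all shared genes) and 0 lower (median log2 2.37, beside -0.21). The shared member not called was the matrix gene *Fbln2*, with 308, 219, 84.4, 161 and 75.8 CPM in tumors and 172, 318 and 191 CPM in cultures, which overlapped. *Col5a1*, chosen after its values were seen because its call was weak, had 1158, 966, 1175, 905 and 947 CPM in tumors and 739.9, 673 and 641 CPM in cultures, without overlap (log2 0.59), and it fell under the fold threshold without tumor 1 (0.51), tumor 3 (0.54), culture 2 (0.58) or culture 3 (0.54), and also with DESeq2 or its size factors (both 0.58). The summed list was 13446, 13524, 15135, 13851 and 14071 CPM in tumors and 2396, 2128 and 2041 CPM in cultures.

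Vessel genes were mixed. *Pecam1*, an adhesion molecule of endothelium, had 29.7, 13.2, 18.3, 20.0 and 15.8 CPM in tumors and 0.552, 0.543 and 0 CPM in cultures. *Cdh5*, the cadherin of endothelial junctions, had 4.66, 5.33, 8.55, 5.97 and 5.28 CPM and 0.207, 0.271 and 0.623 CPM, and the VEGF receptor gene *Kdr* had 29.2, 31.5, 14.2, 38.4 and 22.4 CPM and 1.17, 1.29 and 1.31 CPM. Each tumor was above each culture for all 3 genes. *Plvap*, a diaphragm protein of fenestrated vessels, had 110.0, 51.5, 137, 99.1 and 86.3 CPM in tumors and 0 in culture, at least 1459.8-fold higher. *Robo4*, a guidance receptor of vessels, had 2.39, 2.86, 3.96, 0.822 and 3.54 CPM in tumors and 0 in culture. Tumor 2 was lowest for *Plvap* and tumor 4 for *Robo4*. By contrast, *Flt1*, a decoy receptor for VEGF, had 199.6, 174, 206, 224 and 189 CPM in tumors and 225, 195 and 217 CPM in cultures, with overlap and no call. *Egfl7*, with overlap, and *Ptprb*, lower in every tumor, were also expressed in culture and not called, at means of 24.2 and 29.7 CPM in tumors and 25.9 and 38.7 CPM in cultures. The TGF-β co-receptor gene *Eng* was lower in every tumor, at 33.4, 25.3, 24.1, 20.5 and 18.2 CPM against 90.4, 136 and 84.9 CPM (log2 -2.10, edgeR adjusted p 8.96e-06). Of 16 members 6 were absent from culture, 6 low and 4 shared. Of the shared ones 0 were called higher and 1, *Eng*, lower (0% and 25%, beside 19.9% and 32.2% of all shared genes). The summed list, 493, 389, 479, 492 and 411 CPM in tumors and 381, 400.1 and 369 CPM in cultures, therefore did not separate the groups, *Flt1* being its most abundant gene. The pericyte gene *Rgs5*, a G protein regulator, had 4.85, 9.98, 9.54, 13.4 and 12.4 CPM in tumors and 0.0690, 0 and 0.312 CPM in cultures. *Myh11*, the myosin of smooth muscle, had 0.906, 0.291, 0.208, 2.85 and 0.528 CPM in tumors, highest in tumor 4, and 0 in culture, at least 14.4-fold higher with and 7.29-fold without tumor 4. *Abcc9* and *Higd1b*, a channel subunit and a mitochondrial protein known from pericytes, had 0.841, 0.582, 0.938, 1.48 and 1.39 CPM and 2.26, 1.45, 1.56, 1.37 and 1.13 CPM in tumors and 0 in culture. None of these 3 genes reached 3 CPM in a tumor. *Acta2*, smooth muscle actin, was strongly expressed by the cultured line, at 4636, 2485 and 4414 CPM, and stood at 658, 427, 577, 396 and 624 CPM in tumors. Culture 2 was the lowest culture, yet far above each tumor (log2 -2.84, edgeR adjusted p 1.04e-06). Of 8 members 4 were absent from culture, 3 low and 1, *Acta2*, shared, and *Acta2* set the summed list to 686, 463, 608, 433 and 653 CPM in tumors and 4638, 2486 and 4416 CPM in cultures.

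Keratinocyte RNA reached high levels. *Krt5* and *Krt14*, the keratin pair of the basal epidermis, had 105, 103, 226, 165 and 274 CPM and 625, 595, 907, 534 and 2471 CPM in tumors. Tumor 5 was highest for both. *Krt14* had 1 count over the cultures and *Krt5* had 0. *Krt6b*, a keratin of wounded and hyperproliferating skin, had 613, 878, 1345, 685 and 5257 CPM in tumors and 2 culture counts. Tumor 5 was again far above the others, and the tumor mean was 1756 CPM with it and 880.4 CPM without it, against 1026 and 665 CPM for *Krt14*. *Krt17*, a hair follicle and wound keratin, had 313, 332, 407, 219 and 731 CPM, and *Krtdap*, which accompanies differentiation, had 252, 257, 248, 196 and 424 CPM. Tumor 4 was lowest and tumor 5 highest for both, with 0 culture counts. *Krt1*, a keratin of differentiated layers, did not share this order, with 137, 63.0, 85.1, 65.1 and 43.6 CPM, tumor 1 highest and tumor 5 lowest. *Dsp*, the desmosome anchor, had 619, 650.3, 579.8, 680.5 and 891 CPM in tumors and 1 culture count, and *BC100530*, a cystatin-like gene of the stefin family, had 571, 795, 1044, 625 and 1735 CPM and 1 culture count. *Krt6b* and *BC100530* were named as abundant absent genes and are not members of the keratinocyte list. Of its 17 members 11 were absent from culture, 5 low and 1 shared. The sum over these 17 was 3264, 3249.6, 3898, 3019.9 and 7446 CPM in tumors and 15.5, 23.1 and 21.4 CPM in cultures. Tumor 5 thus had the highest sum over this list, although the lowest *Krt1*, together with the highest calprotectin levels, and how much skin was taken with each tumor was not tested.

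Other tissues of the skin left smaller traces. *Acta1*, skeletal muscle actin, had 306, 249, 283, 238 and 283 CPM in tumors and 1.45, 5.09 and 2.24 CPM in cultures. *Myh4* and *Myh2*, heavy chains of fast muscle, had 20.96, 32.5, 32.9, 25.2 and 17.0 CPM and 41.2, 21.03, 19.3, 21.7 and 25.6 CPM, and *Myh1* had 6.34, 6.78, 10.6, 12.3 and 11.2 CPM. The 3 myosin genes had 0 counts in culture, and tumor 1 was highest for *Myh2* alone. Of 14 striated muscle members 9 were absent from culture and 5 low, with sums of 685, 560.5, 554, 524 and 521 CPM in tumors and 3.31, 6.44 and 3.99 CPM in cultures. *Adipoq*, the fat hormone adiponectin, had 9.77, 23.1, 16.6, 25.7 and 16.2 CPM in tumors and 2 culture counts, and *Cfd*, the adipocyte protease adipsin, had 116, 154, 92.7, 126 and 124 CPM in tumors and 0 in culture, at least 1849-fold higher. Tumors 2 and 4 were highest for both. The lipid droplet genes *Plin1* and *Cidec* had 1.68, 3.25, 2.66, 2.79 and 3.39 CPM and 12.8, 7.17, 6.57, 12.2 and 6.03 CPM and 0 in culture, and the lipase gene *Lpl* had 32.7, 49.9, 33.4, 52.5 and 31.4 CPM and 1 culture count. Of 10 adipocyte members 8 passed the filter, all of them absent from culture (summed level 185, 252, 171, 244 and 205 CPM in tumors and 0, 0.0678 and 0.249 CPM in cultures). *Mbp*, a protein of myelin, had 7.37, 19.4, 6.41, 14.5 and 9.65 CPM in tumors and 5 counts over the cultures. *Ncmap*, a protein of myelinating Schwann cells, had 4.92, 4.26, 4.27, 6.57 and 2.49 CPM in tumors and 1 culture count. Tumor 4 was highest for *Ncmap* and tumor 2 for *Mbp*. *Prx*, a myelin scaffold, was low in every sample and not called, though it was called lower without tumor 3 (log2 -1.63, beside -1.31 with it). *Pmp22*, also a myelin gene, had 102, 107, 76.2, 81.6 and 109 CPM in tumors and 129, 132 and 132 CPM in cultures, and it set the Schwann sum to 119, 137, 93.6, 111 and 125 CPM in tumors and 132, 135 and 135 CPM in cultures. Of 6 members 2 were absent from culture, 3 low and 1, *Pmp22*, shared. Globin RNA marks blood in the samples. *Hba-a1* had 20.8, 29.7, 15.5, 32.5 and 54.9 CPM in tumors and 0.414, 0.136 and 0.187 CPM in cultures, *Hba-a2* had 18.6, 20.6, 11.5, 25.6 and 37.4 CPM and *Hbb-bs* 41.8, 51.2, 36.1, 93.2 and 54.2 CPM. Tumors 4 and 5 were highest and tumor 3 lowest for the 3 genes. Of 5 erythroid members 4 were absent from culture and 1 low, and the sum was 94.6, 112, 70.2, 166 and 159.7 CPM in tumors and 0.414, 0.136 and 0.187 CPM in cultures. *Xist*, the RNA that coats the inactive X chromosome, had 749, 623, 414, 644 and 474 CPM in tumors and 177, 196 and 155 CPM in cultures, and the Y-linked *Ddx3y* and *Eif2s3y* had 0 counts in all 8 samples. The line therefore expressed *Xist* itself, and every tumor was higher (log2 1.72, edgeR adjusted p 3.86e-05).

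**Figure D1:**
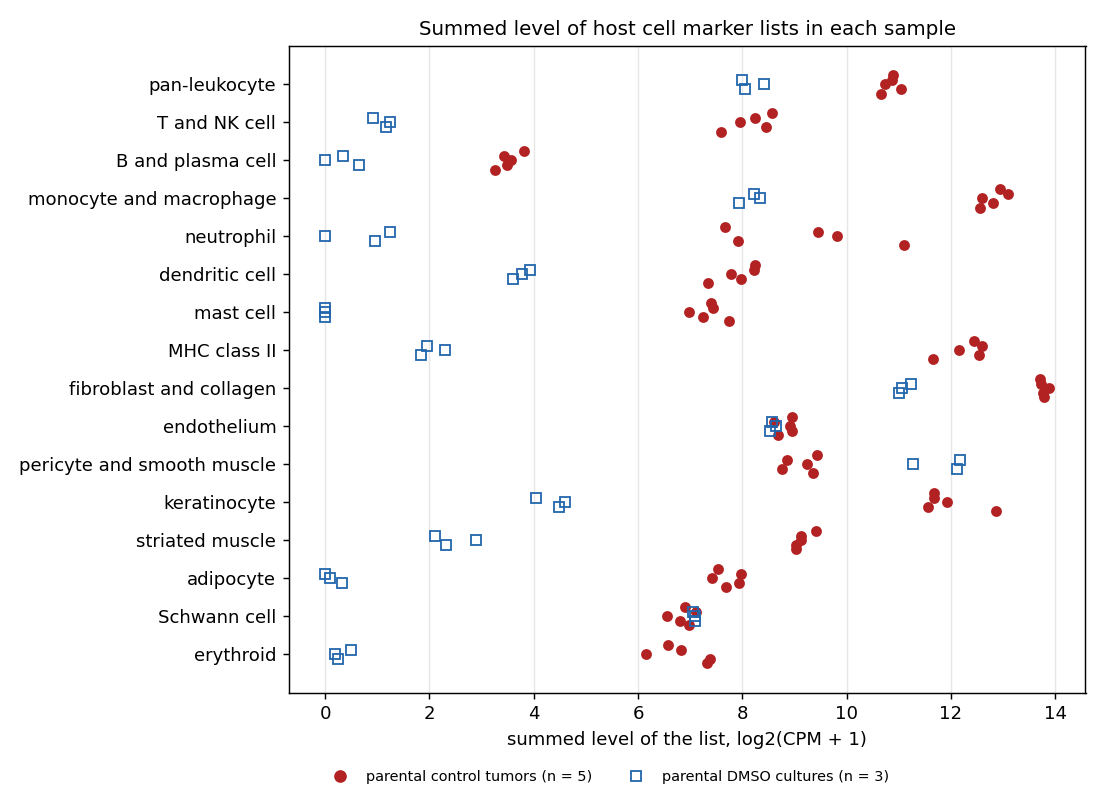
Summed level of each host marker list in each sample, as log2 of CPM plus 1 on the horizontal axis, for 5 tumors (filled circles) and 3 cultures (open squares), each symbol being 1 sample. The groups are apart for all lists except endothelium and Schwann cell, where they meet, and pericyte and smooth muscle, where *Acta2* puts the cultures above the tumors.

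Genes of MHC class I antigen presentation rose in tumors, among them genes that the cultured line expressed. *H2-K1* (ENSMUSG00000061232, chr17:33996017-34000347, GRCm38), a classical class I heavy chain, had 3157, 1970.5, 2581, 4310.2 and 2648 CPM in tumors and 26.9, 13.0 and 28.2 CPM in cultures. The lowest tumor was far above the highest culture, and this was the largest rise among the shared genes named here (log2 7.01 ± 0.41 SE, edgeR adjusted p 4.14e-08). *H2-D1*, the other classical chain, had 1006, 721, 1028, 1472 and 1079.6 CPM in tumors and 61.0, 25.7 and 55.5 CPM in cultures (log2 4.49, edgeR adjusted p 4.97e-07). Culture 2 was lowest for both chains. *B2m*, the light chain they share, had 12317, 9616, 9673, 11561 and 8988 CPM in tumors and 1178, 960.5 and 1266 CPM in cultures, without overlap (log2 3.20, edgeR adjusted p 1.18e-07). *H2-Q7*, a nonclassical chain, had 182, 180.4, 203, 326 and 181 CPM in tumors, highest in tumor 4, and 0 counts in culture, at least 3236-fold higher. *Tap2*, a peptide transporter chain, had 2.33, 0.0485, 1.09, 0.438 and 1.39 CPM in tumors and 0, 0.0678 and 0.499 CPM in cultures, and its fitted log2 of 2.42 became 4.70 without culture 3. Of 17 members 16 passed the filter, 1 of them absent from culture, 5 low and 10 shared. All 10 shared members were called higher (beside 19.9% of all shared genes; median log2 2.84, beside -0.21). Host cells express these genes too, and with markers of leukocytes present in every tumor, the part of the cancer cells in the rise was not tested.

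Interferon-stimulated genes were higher as well. *Stat2*, a transcription factor of type I interferon signalling, had 60.7, 50.2, 43.1, 68.5 and 31.9 CPM in tumors and 5.25, 6.78 and 8.16 CPM in cultures (log2 2.92, edgeR adjusted p 4.58e-06). Tumors 1 and 4 were highest and tumor 5 lowest, and no tumor met a culture. *Irf1*, an early interferon response factor, had 122, 198, 164, 220.3 and 256 CPM in tumors and 45.1, 27.1 and 49.9 CPM in cultures (log2 2.24, edgeR adjusted p 3.04e-05). Here tumor 5 was highest, unlike for *Stat2*. *Cxcl9*, a T cell attracting chemokine induced by interferon gamma, had 407, 341, 227, 397 and 146 CPM in tumors and 0 counts in culture, at least 4584-fold higher. The antiviral GTPase *Mx1* had 30.3, 13.2, 12.2, 22.5 and 9.61 CPM in tumors and 1 culture count. Of 26 members 2 were absent from culture, 17 low and 7 shared, and the 7 were called higher (beside 19.9% of all shared genes; median log2 3.14, beside -0.21). The sum was 2996, 2464, 1835, 3138 and 1809 CPM in tumors and 158, 142 and 174 CPM in cultures. Like the summed T and NK cell list, it was highest in tumors 1 and 4 and lowest in tumor 5, which is a description over 5 tumors.

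To show what the interferon list shares in sequence, promoters (250 bases before to 50 after the gene start, RefSeq, GRCm38.p6) were searched on both strands for the interferon response core TTTCNNTTT. It was found in 16 of 26 promoters (61.5%) of 22 matched members of 26, beside 10.6% of all 32851 promoters. Windows of 30 bases around the match are printed for 6 such members, because they show the core in the transcription factor gene *Stat2* and in antiviral genes, with the core or its reverse complement in capitals, read along the strand of the gene; a match is a description and not a site of binding.
Stat2, chr10:128270266-128270295 (+ strand): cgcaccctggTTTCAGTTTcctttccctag
Ifit1, chr19:34640775-34640804 (+ strand): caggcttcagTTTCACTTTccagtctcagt
Ifit3, chr19:34583363-34583392 (+ strand): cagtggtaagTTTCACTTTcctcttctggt
Isg15, chr4:156200876-156200905 (- strand): atgccgtaggAAAAGGAAAccgaaacagaa
Rsad2, chr12:26456553-26456582 (- strand): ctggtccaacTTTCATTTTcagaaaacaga
Cxcl10, chr5:92349082-92349111 (- strand): cacgctttggAAAGTGAAActtacctcact

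*Ifit1*, *Ifit3*, *Isg15*, *Rsad2* and *Cxcl10* were chosen for display after their values were seen, as antiviral effectors and a chemokine of the list, and every tumor lay above every culture for each. The same search was made for 5 other lists. The hypoxia core ACGTG was in 14 of 26 promoters (53.8%) of 18 matched members of 20, beside 19.6% of all 32851 promoters. The ATF4 core TGATGNAA was in 7 of 23 promoters (30.4%) of 19 matched members of 23, beside 3.97% of all 32851 promoters. The CCAAT box was in 18 of 25 promoters (72.0%) of 24 matched members of 30, beside 37.4% of all 32851 promoters. For the melanocyte core CATGTG (8 of 16 promoters) and the sterol core TCACNCCAC (1 of 18), 11 of 18 and 15 of 23 members had a promoter in the table, too few for the shares to stand for the lists, so that these checks are void.

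The TGF-β axis is the pathway the series is about. *Lrrc32* (ENSMUSG00000090958, chr7:98489283-98502181), whose product GARP holds latent TGF-β on the cell surface, had 69.9, 55.0, 71.1, 40.0 and 72.3 CPM in tumors and 25.7, 15.4 and 20.1 CPM in cultures. Every tumor was above every culture, tumor 4 being nearest (log2 1.60 ± 0.26 SE, edgeR adjusted p 0.000195). The ligand gene *Tgfb1* had 65.3, 27.5, 59.5, 29.8 and 27.8 CPM in tumors and 29.4, 51.0 and 22.5 CPM in cultures. Tumors 1 and 3 and culture 2 were high, the groups overlapped, and the gene was not called (log2 0.29, edgeR adjusted p 0.515). *Tgfb2*, a second ligand, had 51.8, 76.8, 37.2, 43.8 and 40.5 CPM in tumors and 22.5, 31.1 and 19.5 CPM in cultures, all tumors being higher (log2 1.04, edgeR adjusted p 0.00576). The latent TGF-β binding proteins, which store the ligand in the matrix, went different ways. *Ltbp3* had 519, 285, 570.2, 490.1 and 616 CPM in tumors and 148, 138 and 133 CPM in cultures and was higher in each tumor (log2 1.83, edgeR adjusted p 4.54e-05). *Ltbp1* had 63.4, 44.3, 63.8, 55.7 and 51.0 CPM in tumors and 194, 181 and 154 CPM in cultures and was lower in each tumor (log2 -1.66, edgeR adjusted p 7.29e-06). *Ltbp2*, a matrix relative, was near 0 in the cultures at 0.828, 0 and 0.499 CPM and had 66.0, 61.1, 63.2, 58.8 and 33.0 CPM in tumors, tumor 5 being lowest. *Nrros*, which presents latent TGF-β on macrophages and microglia in the way GARP does on other cells, had 126, 159, 103, 137 and 109.9 CPM in tumors and 1.31, 0.882 and 1.31 CPM in cultures (log2 6.76, edgeR adjusted p 6.36e-09). *Tgfbi*, a matrix protein induced by TGF-β and not a list member, had 264, 329.7, 328, 260.2 and 296 CPM in tumors and 9.53, 5.43 and 6.23 CPM in cultures (log2 5.39, edgeR adjusted p 1.59e-08). Every tumor was above every culture for the 3 genes. Of 21 members 20 passed the filter, and of the 15 shared ones 10 were called higher and 1 lower (66.7% and 6.67%, beside 19.9% and 32.2% of all shared genes), with a median log2 of 1.06 beside -0.21. The lower calls became 2 when tumor 2, tumor 3, culture 1 or culture 3 was left out, by the signal carrier *Smad4*, which had 34.3, 49.6, 41.2, 34.4 and 36.1 CPM in tumors and 56.4, 62.9 and 54.8 CPM in cultures (log2 -0.57, and -0.67, -0.59, -0.59 and -0.61 in those fits). Regulatory T cells, fibroblasts, endothelial cells and platelets also express *Lrrc32* and macrophages *Nrros*, and their parts in these levels were not tested.

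Glucocorticoid response genes were read because mice have circulating corticosteroids. *Nr3c1*, the receptor gene, had 64.4, 57.7, 45.5, 56.3 and 52.8 CPM in tumors and 35.2, 33.0 and 37.8 CPM in cultures. All tumors were above all cultures, by little (log2 0.65, edgeR adjusted p 0.00886), and the call was lost without tumor 1 (log2 0.56). *Tsc22d3*, which encodes the glucocorticoid-induced leucine zipper, had 89.8, 42.5, 73.4, 88.3 and 69.5 CPM in tumors and 15.4, 11.7 and 16.3 CPM in cultures. Tumor 2 was lowest but above each culture (log2 2.33, edgeR adjusted p 1.39e-05). *Per1*, a clock gene under direct receptor control, had 27.0, 17.3, 17.8, 17.1 and 17.5 CPM in tumors and 7.52, 4.27 and 5.80 CPM in cultures (log2 1.72, edgeR adjusted p 0.000228). *Fkbp5*, a chaperone that restrains the receptor, had 67.4, 55.4, 76.1, 74.6 and 87.3 CPM in tumors and 49.9, 18.5 and 39.6 CPM in cultures, culture 2 being lowest (log2 1.003, edgeR adjusted p 0.00953). Both genes were higher in each tumor. *Zbtb16*, a strongly inducible transcription factor, had 3.36, 1.45, 1.67, 2.85 and 0 CPM in tumors and 0 in culture. *Hsd11b1*, the enzyme that regenerates active corticosteroid in tissue, had 3.75, 4.85, 4.53, 5.48 and 4.30 CPM in tumors and 0, 0.543 and 0.0623 CPM in cultures. Tumor 5 had no count of *Zbtb16*, and the groups did not overlap for *Hsd11b1*. The kinase gene *Sgk1* ran against these, with 140.0, 70.7, 137, 92.6 and 84.2 CPM in tumors and 147, 181 and 148 CPM in cultures. Every tumor was below every culture, but its lower call was at the threshold (log2 -0.60, edgeR adjusted p 0.0457) and was lost with scaling from shared genes (-0.35) and when any 1 sample other than tumors 1 and 3 was left out (from -0.65 to -0.48). The metal-binding *Mt1* had 769, 739, 638, 674 and 792 CPM in tumors and 802, 954 and 833 CPM in cultures and was not called. Of 12 members 11 passed the filter, and of the 8 shared ones 5 were called higher and 1 lower (62.5% and 12.5%, beside 19.9% and 32.2% of all shared genes), or 6 and 0 with scaling from shared genes (median log2 1.14 beside -0.21, and 1.38 beside 0.03 with that scaling). Host cells in the tumors also hold the receptor and can express these genes, and their part in these levels was not tested.

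**Figure D2:**
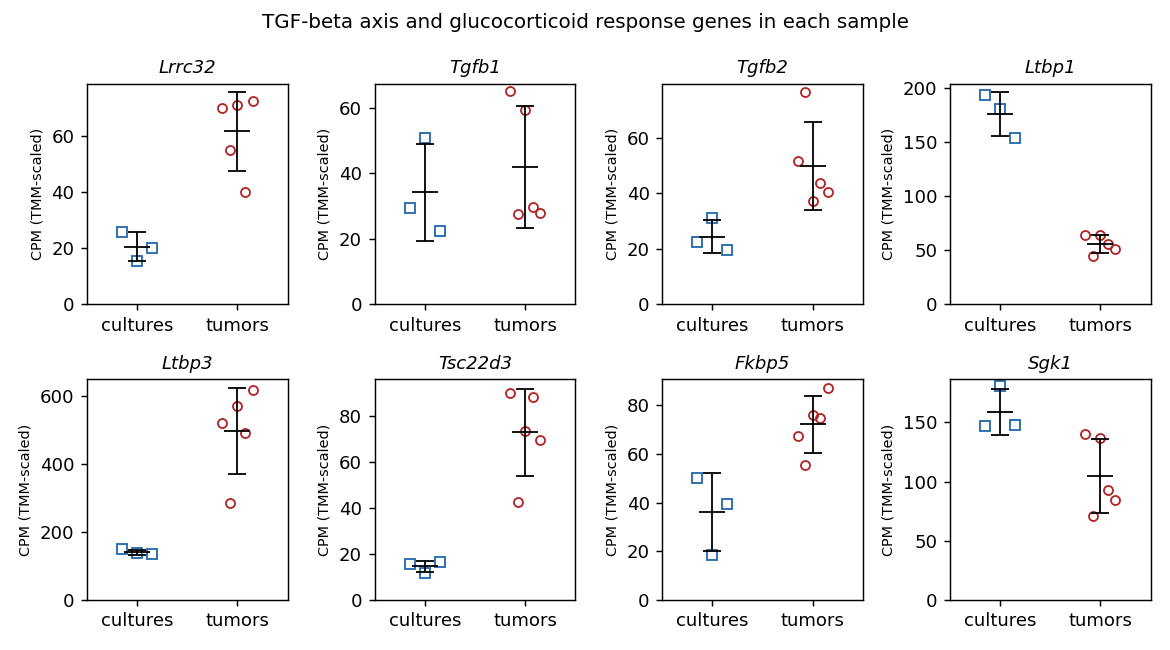
CPM of 5 TGF-β axis genes (*Lrrc32*, *Tgfb1*, *Tgfb2*, *Ltbp1*, *Ltbp3*) and 3 glucocorticoid response genes (*Tsc22d3*, *Fkbp5*, *Sgk1*) in each of 3 cultures (squares) and 5 tumors (circles), with the group mean and SD as lines. *Lrrc32*, *Tgfb2*, *Ltbp3*, *Tsc22d3* and *Fkbp5* lie higher and *Ltbp1* lower in every tumor, *Tgfb1* overlaps, and the lower call of *Sgk1* is lost with scaling from shared genes.

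Growth genes of the cultured line were lower in tumors. *Mki67*, a chromosome surface protein of dividing cells, had 57.4, 80.5, 48.2, 68.0 and 57.6 CPM in tumors and 131, 119 and 123 CPM in cultures (log2 -0.998, edgeR adjusted p 0.000646). *Top2a*, which untangles replicated DNA, had 364, 406, 255, 346 and 294 CPM and 658, 828 and 715 CPM (log2 -1.14, edgeR adjusted p 0.000221). Tumors lay below cultures without overlap for both. The mitotic cyclin *Ccnb1* had 37.9, 49.3, 61.3, 42.7 and 72.1 CPM in tumors and 175, 132 and 186 CPM in cultures (log2 -1.64, edgeR adjusted p 5.28e-05). *Cdc6*, which licenses replication origins, had 3.56, 7.56, 6.67, 1.64 and 9.31 CPM and 45.6, 34.9 and 49.3 CPM (log2 -2.90, edgeR adjusted p 7.08e-05). Tumor 4 was lowest. The nucleotide-supplying *Rrm2* had 20.1, 17.5, 26.4, 19.8 and 41.5 CPM in tumors and 129.8, 117 and 154 CPM in cultures (log2 -2.41, edgeR adjusted p 8.57e-06), and the G1 cyclin *Ccnd1*, the most abundant member, had 798, 529, 569.8, 876 and 744 CPM and 1347, 1308 and 1575 CPM (log2 -1.003, edgeR adjusted p 0.000877). No tumor reached a culture for these 3 genes. Of 30 members, all shared, 23 were called lower (76.7%, beside 32.2% of all shared genes) and 0 higher, or 21 and 0 with scaling from shared genes (median log2 -1.12 beside -0.21, and -0.88 beside 0.03 with that scaling). Tumors hold host cells that divide less or not at all as well as cancer cells, and their parts in this difference were not tested.

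Ribosome biogenesis was lower as well. *Ncl*, the nucleolar scaffold nucleolin, had 267, 278, 248, 240.2 and 278 CPM in tumors and 1508, 1574 and 1696 CPM in cultures (log2 -2.60, edgeR adjusted p 5.03e-08). *Nop56* and *Nop58*, core proteins of the particles that modify ribosomal RNA, had 87.6, 85.8, 86.1, 93.2 and 69.0 CPM and 145, 132, 141, 135 and 107 CPM in tumors and 323, 424 and 366 CPM and 411, 433 and 418 CPM in cultures (log2 -2.14 and -1.67, edgeR adjusted p 5.51e-07 and 2.85e-06). The tumors were closely alike and the groups far apart. The nucleolar helicase gene *Ddx21* had 158, 147, 111, 111 and 127 CPM in tumors and 1012, 1339.5 and 1100.0 CPM in cultures (log2 -3.14, edgeR adjusted p 5.22e-08). *Srm*, spermidine synthase, had 34.0, 38.2, 42.8, 24.8 and 35.7 CPM in tumors and 329, 453 and 337 CPM in cultures (log2 -3.41, edgeR adjusted p 5.77e-08). No tumor came near a culture for either. *Myc*, the driver of this program, had 3.23, 1.36, 1.30, 2.03 and 1.55 CPM in tumors and 3.04, 5.29 and 2.62 CPM in cultures. It was low throughout, its groups overlapped, and it was not called, although it was called lower without tumor 1 (log2 -1.25, beside -0.95 with it). Of 20 members 19 were shared, and of these 18 were called lower (94.7%, beside 32.2% of all shared genes) and 0 higher under both scalings (median log2 -1.73 beside -0.21, and -1.49 beside 0.03 with scaling from shared genes). Short non-coding RNA genes were among the largest falls of all shared genes. *Snora68*, a guide RNA for pseudouridine, had 0, 0.291, 0, 0 and 0 CPM in tumors and 5.59, 17.2 and 8.23 CPM in cultures. *Snora16a* had 0, 0, 0, 0 and 0.377 CPM and 10.1, 13.6 and 11.5 CPM, *Snora78* had 0, 0.485, 0, 0.548 and 0.339 CPM and 5.87, 14.04 and 6.79 CPM, and *Snora73b* had 3.82, 2.86, 1.20, 2.03 and 2.79 CPM and 46.2, 72.1 and 44.3 CPM. Culture 2 was the highest culture for each of the 4. *Rpph1*, the RNA of ribonuclease P, had 0.711, 1.55, 1.30, 0.712 and 0 CPM in tumors and 52.5, 135 and 60.4 CPM in cultures (log2 -6.61, edgeR adjusted p 2.75e-06), and the microRNA precursor gene *Mir125b-1* had 0.129, 0.436, 0, 1.04 and 0 CPM and 10.3, 12.4 and 6.05 CPM. These 6 genes were below in every tumor, and recovery of short RNA in extraction and the level of these RNAs cannot be told apart. Without tumor 2 the fitted log2 of *Snora68* went from -7.28 to -10.53, without tumor 5 that of *Snora16a* from -6.89 to -10.64, and without tumor 4 that of *Mir125b-1* from -4.90 to -6.05, since these tumors held most or all of the few tumor counts and fits against 0 give no bound.

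Sterol synthesis was lower in tumors across most of the pathway. *Hmgcs1*, which makes the precursor of mevalonate, had 76.3, 96.7, 93.6, 84.2 and 123 CPM in tumors and 297, 274 and 285 CPM in cultures (log2 -1.59, edgeR adjusted p 1.15e-05). *Mvk*, mevalonate kinase, had 18.7, 20.6, 17.2, 16.1 and 25.0 CPM and 94.0, 86.0 and 90.7 CPM (log2 -2.21, edgeR adjusted p 9.45e-07). Both were below in every tumor. *Fdft1*, which commits the pathway to sterols, had 6.08, 11.6, 8.55, 12.2 and 12.9 CPM in tumors and 91.3, 112 and 87.4 CPM in cultures (log2 -3.24, edgeR adjusted p 3.48e-07). *Insig1*, which retains the sterol sensor and is itself a target of it, had 7.24, 8.24, 8.13, 6.46 and 5.24 CPM in tumors and 66.8, 67.1 and 52.9 CPM in cultures (log2 -3.14, edgeR adjusted p 1.27e-07). Again no values met. Of 23 members 22 were shared, and of these 19 were called lower (86.4%, beside 32.2% of all shared genes) and 0 higher, or 18 and 0 with scaling from shared genes (median log2 -1.52 beside -0.21, and -1.28 beside 0.03 with that scaling). All tumors were below all cultures for 20 of the 22 (90.9%, beside 34.0% of all shared genes).

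Amino acid supply showed a like pattern. *Atf4*, the transcription factor that answers amino acid shortage, had 283, 267, 266, 260.5 and 242 CPM in tumors and 719, 999 and 651 CPM in cultures (log2 -1.58, edgeR adjusted p 9.65e-06). Its target *Ddit3*, a stress factor, had 35.0, 33.4, 19.3, 27.8 and 33.3 CPM and 56.1, 88.0 and 50.7 CPM (log2 -1.13, edgeR adjusted p 0.00164). Culture 2 was highest for both, and no tumor reached a culture. *Psat1*, an enzyme of serine synthesis, had 51.4, 72.4, 84.0, 53.1 and 117 CPM in tumors and 466, 470.1 and 402 CPM in cultures (log2 -2.56, edgeR adjusted p 3.37e-06). *Chac1*, which degrades glutathione, had 2.78, 0.678, 2.81, 1.15 and 2.79 CPM and 19.4, 22.6 and 14.6 CPM (log2 -3.20, edgeR adjusted p 4.08e-05). Neither gene had overlapping groups. *Atf5*, a relative of *Atf4* and the most abundant member in tumors, had 346, 255, 274, 221 and 253 CPM in tumors and 269, 366 and 209 CPM in cultures. Those values overlapped and its sign depended on scaling (-0.06, or 0.18 with factors from shared genes), with no call in either. The chromatin cofactor *Nupr1* was higher in each tumor, at 149.7, 179, 208, 161 and 241 CPM against 106, 113 and 88.4 CPM (log2 0.87, edgeR adjusted p 0.00268). Of 23 members 20 were shared, and of these 14 were called lower (70.0%, beside 32.2% of all shared genes) and 1 higher, or 13 and 1 with scaling from shared genes (median log2 -1.13 beside -0.21, and -0.88 beside 0.03 with that scaling).

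Genes of YAP and the contractile cytoskeleton, which respond to stiff surfaces, were mostly lower. *Ctgf* and *Cyr61*, secreted matrix proteins and YAP targets, had 0.970, 0.921, 1.09, 1.81 and 2.53 CPM and 9.38, 14.3, 18.4, 10.2 and 12.6 CPM in tumors and 5.94, 5.97 and 6.48 CPM and 28.4, 44.8 and 23.6 CPM in cultures (log2 -2.05 and -1.31, edgeR adjusted p 0.00135 and 0.00139). *Ankrd1*, another YAP target, had 65.7, 98.9, 57.7, 125 and 78.2 CPM in tumors and 421, 386 and 465 CPM in cultures (log2 -2.32, edgeR adjusted p 4.81e-06). All tumors were below all cultures for the 3 genes. *Tagln*, an actin-binding protein, had 1.23, 8.53, 5.63, 4.00 and 4.67 CPM and 23.6, 50.7 and 35.7 CPM (log2 -2.92, edgeR adjusted p 0.000110). *Cnn1*, calponin, had 0.388, 0.436, 0.156, 0.219 and 2.22 CPM in tumors and 7.11, 4.75 and 7.48 CPM in cultures, and its fitted log2 went from -3.17 to -4.40 without tumor 5, the highest tumor. Still, no tumor reached a culture for *Tagln* or *Cnn1*. *Actb*, cytoplasmic actin, had 18890.0, 14326, 12423, 14307 and 12912 CPM in tumors and 16439, 22258 and 16776 CPM in cultures. These values overlapped and it was not called. The crosslinker gene *Flna* was the 1 higher call, with 2104, 1321, 2182, 1674 and 1704 CPM against 1173, 1220.5 and 991 CPM (log2 0.67), and it missed the fold threshold without tumor 1 (0.58) or without culture 3 (0.58). Of 20 members 19 were shared, and of these 13 were called lower (68.4%, beside 32.2% of all shared genes) and 1 higher under both scalings (median log2 -1.20 beside -0.21, and -0.97 beside 0.03 with scaling from shared genes). *Actg1* is 1 of the 13 and, since its few reads may be shared with near-identical copies, is uncertain; without it 12 of 18 were called lower.

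Oxygen and sugar genes gave no common direction. *Vegfa*, the vessel growth factor induced by hypoxia, had 21.3, 29.2, 22.0, 25.1 and 29.3 CPM in tumors and 20.2, 26.7 and 24.7 CPM in cultures. Its groups overlapped and it was not called (log2 0.09, edgeR adjusted p 0.727). *Bnip3*, a mitophagy receptor, had 197, 298, 241, 253 and 323 CPM and 140.0, 149 and 124 CPM and was higher in each tumor (log2 0.93, edgeR adjusted p 0.00153). *Pfkfb3*, which speeds glycolysis, had 35.6, 65.7, 34.2, 50.02 and 48.4 CPM in tumors and 4.69, 2.37 and 4.99 CPM in cultures (log2 3.54, edgeR adjusted p 2.36e-06). Its relative *Pfkfb4* went the other way, with 2.07, 5.72, 3.65, 5.31 and 4.71 CPM and 11.2, 9.43 and 11.5 CPM (log2 -1.31, edgeR adjusted p 0.00540). The groups did not overlap for either. The vasodilator gene *Adm* was lower in tumors, at 17.3, 56.2, 16.8, 24.2 and 24.0 CPM against 81.2, 73.7 and 75.2 CPM (log2 -1.47, edgeR adjusted p 0.00265). Tumor 2 was the highest tumor for *Adm*, yet below each culture. *Car9*, carbonic anhydrase, was low, with 0.582, 0.678, 2.97, 1.10 and 4.64 CPM in tumors and 0.138, 0 and 0.312 CPM in cultures. Tumors 3 and 5 were highest. Its fitted log2 of 3.66 became 3.07 without tumor 5 and 4.73 without culture 3. Of 20 hypoxia members 15 were shared, and of these 5 were called higher and 3 lower (33.3% and 20.0%, beside 19.9% and 32.2% of all shared genes), and equally many with scaling from shared genes (median log2 0.16 beside -0.21, and 0.39 beside 0.03 with that scaling). In glycolysis, the hexokinase genes *Hk1* and *Hk2* had 217, 200.1, 204, 184 and 257 CPM and 168, 138, 108, 132 and 139 CPM in tumors and 179, 212 and 155 CPM and 134, 120.3 and 133 CPM in cultures, with overlap and no call. *Eno1*, enolase, had 157, 94.7, 83.4, 216 and 102 CPM and 49.98, 74.2 and 52.7 CPM and was called higher (log2 1.14, edgeR adjusted p 0.00741). Whether reads of *Eno1* were shared with near-identical copies was not tested. *Slc16a3*, the lactate exporter, had 379, 214, 332, 405 and 259 CPM in tumors and 173, 269 and 159 CPM in cultures. Culture 2 lay above tumors 2 and 5, and the higher call (log2 0.66) was lost without tumor 1 (0.57), 3 (0.65) or 4 (0.56) and without culture 1 (0.57) or 3 (0.52). *Gpi1*, an isomerase, had 471, 404, 409.7, 380.5 and 491 CPM in tumors and 615, 791 and 563 CPM in cultures, and its lower call (log2 -0.61) was lost without tumor 2 (-0.58), tumor 4 (-0.56) or culture 2 (-0.45), with scaling from shared genes (-0.37), with at least 10 counts (-0.50) and with all 31 samples in the fit (-0.56). *Aldoa*, aldolase, had 1584, 1617, 1555, 1651 and 1804 CPM and 2203, 2794 and 1896 CPM and was not called, except without culture 3 (log2 -0.61). *Pgam1*, a mutase, had 21.6, 29.5, 17.2, 22.3 and 16.2 CPM and 77.2, 108 and 77.4 CPM (log2 -2.03, edgeR adjusted p 8.92e-06). Tumors lay below cultures for *Gpi1*, *Aldoa* and *Pgam1*, without overlap. *Gapdh* had 2.78, 7.85, 11.1, 4.55 and 35.1 CPM in tumors and 81.9, 12.7 and 114 CPM in cultures, and reads of such genes may be shared with near-identical copies, so its call, which was also lost without culture 3 (log2 -1.94) and moved from -2.49 to -3.40 without tumor 5, is uncertain. Of 14 members 13 were shared, and of these 2 were called higher and 5 lower (15.4% and 38.5%, beside 19.9% and 32.2% of all shared genes), or 3 and 4 with scaling from shared genes (median log2 -0.48 beside -0.21, and -0.24 beside 0.03 with that scaling), and 1 rather than 2 higher when tumor 1, 3 or 4 or culture 1 or 3 was left out; without *Gapdh* 4 of 12 were lower.

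Immediate-early genes, switched on within minutes by growth factors or by tissue handling, went both ways. *Fos* had 3.49, 4.26, 7.92, 7.01 and 13.6 CPM in tumors and 0.966, 1.36 and 0 CPM in cultures, and *Egr2*, a zinc finger factor, had 3.75, 9.26, 5.99, 11.5 and 7.09 CPM and 1.17, 0.271 and 1.93 CPM. Every tumor was higher for both. Their fitted log2 values of 3.23 and 2.72 became 2.64 and 3.37 without culture 3, and that of *Fos* 3.93 without culture 2. *Jun*, the partner of *Fos*, had 119, 117, 87.5, 109 and 158 CPM in tumors and 131, 129.6 and 161 CPM in cultures and was not called. *Fosl1*, a relative tied to RAS signalling, was lower, at 47.5, 38.5, 88.7, 62.4 and 121 CPM against 169, 111 and 182 CPM (log2 -1.10, edgeR adjusted p 0.0114), with tumor 5 above culture 2. *Klf6*, a zinc finger factor, was lower in each tumor at 64.4, 97.6, 40.7, 62.7 and 47.1 CPM against 107, 135 and 129 CPM (log2 -0.99, edgeR adjusted p 0.00515). *Klf4*, a factor of skin and stem cells, had 248, 252, 74.4, 210.2 and 84.5 CPM in tumors and 262, 436 and 257 CPM in cultures. All tumors were lower, tumors 3 and 5 most, but the gene was not called (log2 -0.87), and it was called lower without tumor 1 (-1.06) or tumor 2 (-1.04). *Fosb* had 2.20, 3.59, 2.81, 1.37 and 3.58 CPM and 2.42, 5.83 and 4.99 CPM, with overlap. Of 18 members 10 were shared, and of these 3 were called higher and 3 lower (30% and 30%, beside 19.9% and 32.2% of all shared genes), or 4 and 2 with scaling from shared genes (median log2 0.07 beside -0.21, and 0.31 beside 0.03 with that scaling). The sign of this median turned with the replicate block (-0.16, 2 higher and 4 lower), without tumor 5 (-0.14), without culture 2 (-0.06) and without both (-0.26).

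**Figure D3:**
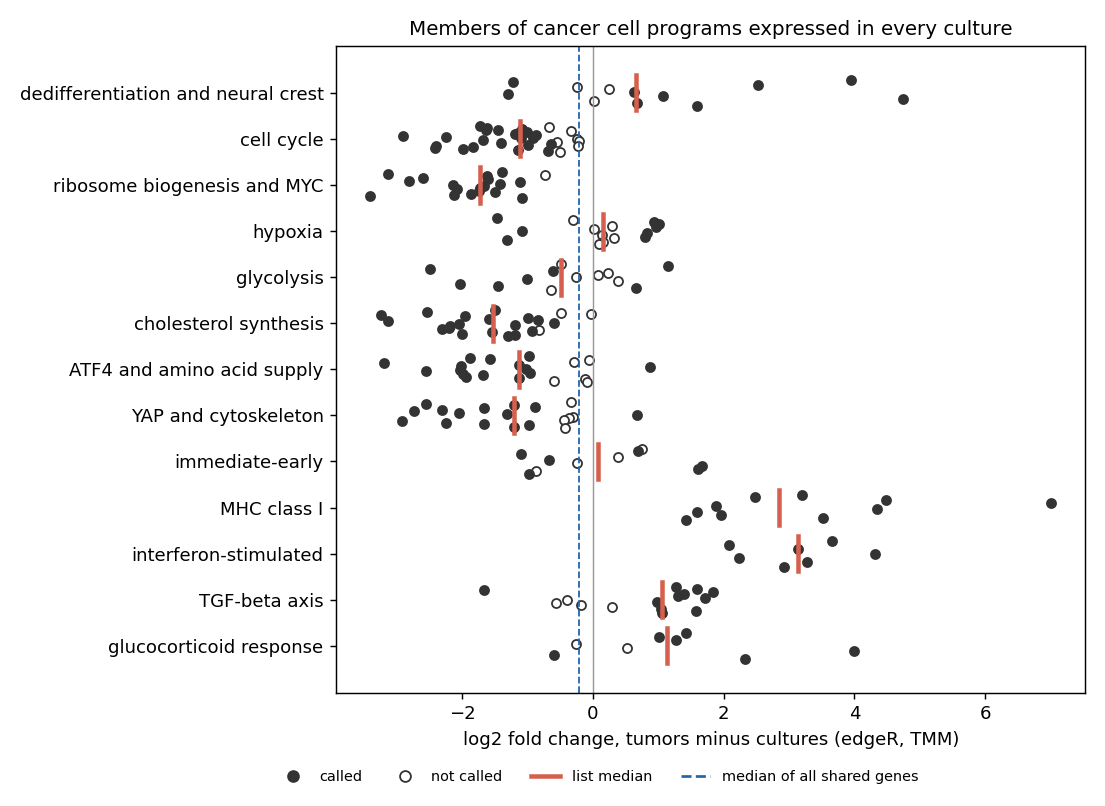
Log2 fold change of tumors minus cultures (edgeR, TMM) for the members of each cancer cell list that were expressed in every culture, with filled circles for called genes, open circles for genes not called, a bar for the list median and a dashed line for the median of all shared genes (-0.21). With scaling from shared genes that line lies at 0.03 and no list median changes sign, while the counts of calls change as given for each list.

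Beside the collagen and class I genes, these shared genes were among the largest rises without overlap. *Gm2a*, a lysosomal lipid carrier, had 720.2, 448, 675, 513 and 386 CPM in tumors and 19.0, 16.5 and 17.3 CPM in cultures (log2 4.96, edgeR adjusted p 3.63e-08). *Lsp1*, a leukocyte actin-binding protein, had 358, 204, 269.8, 279 and 243 CPM and 10.4, 9.29 and 7.54 CPM (log2 4.90, edgeR adjusted p 2.44e-08). *Rcn3*, a chaperone for collagen in the secretory path, had 357, 220.2, 353, 296 and 249.9 CPM and 10.6, 14.92 and 7.04 CPM (log2 4.77, edgeR adjusted p 1.08e-07). None of these values met between groups. *Tnc*, tenascin C of wound and tumor matrix, had 446, 639.7, 471, 581 and 629.9 CPM in tumors and 23.7, 17.6 and 20.8 CPM in cultures (log2 4.74, edgeR adjusted p 1.76e-08). *Atp2b4*, a calcium pump of the plasma membrane, had 224, 166, 184, 217 and 115 CPM and 6.14, 8.82 and 6.79 CPM (log2 4.64, edgeR adjusted p 7.17e-08). Tumor 5 was lowest for *Atp2b4*, and every tumor was above every culture for both genes. Protein-coding genes were among the largest falls too. *Cdh26*, a cadherin, had 0, 0.969, 1.04, 1.15 and 1.24 CPM in tumors and 29.4, 47.1 and 25.0 CPM in cultures (log2 -5.22, edgeR adjusted p 5.04e-06). *Siglecg*, a sialic acid receptor known from B cells, had 3.82, 1.65, 1.56, 1.75 and 2.49 CPM and 62.1, 75.6 and 51.0 CPM (log2 -4.81, edgeR adjusted p 7.68e-08). *Gpr97*, an adhesion receptor known from neutrophils, had 0.453, 4.17, 1.77, 0.164 and 1.13 CPM and 31.5, 33.3 and 29.9 CPM (log2 -4.34, edgeR adjusted p 8.21e-05), its log2 being -5.12 without tumor 2, the highest tumor. The cultured line thus expressed receptors best known from leukocytes, at levels above those of any tumor. *Dact2*, a Wnt and TGF-β modulator, had 1.42, 0.145, 0, 0 and 0.113 CPM in tumors and 6.77, 8.27 and 7.04 CPM in cultures, and its log2 of -4.53 became -6.63 without tumor 1.

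The same contrast in the GR KO line (5 control tumors, 3 DMSO cultures) showed where the parental difference stands apart. With these 16 samples scaled together, 15468 genes were tested for a difference between the parental and the GR KO contrast, and 768 (4.97%) were called in edgeR, 87 with the parental contrast higher and 681 with it lower. Leaving out GR KO tumor 4 raised the count to 2223, and leaving out parental culture 2, GR KO culture 1 or GR KO culture 2 brought it to 442, 450 and 383. *Lrrc32* was at 58.4 CPM in parental and 61.6 CPM in GR KO tumors on average, but at 18.9 and 2.49 CPM in cultures. The difference therefore lay on the side of the cultures (log2 -3.004, edgeR adjusted p 0.000320). *Fcer1g* followed the same course, with 517 and 554 CPM in tumors and 261 and 5.59 CPM in cultures (log2 -5.64). *Tsc22d3* gave 68.9 and 64.8 CPM in tumors and 13.4 and 17.7 CPM in cultures, and its difference was not called (log2 0.49, edgeR adjusted p 0.459). *Fkbp5* gave 68.3 and 24.9 CPM in tumors and 33.5 and 35.8 CPM in cultures. Its mean was thus lower in GR KO tumors than in their cultures, but by less than the 1.5-fold threshold (log2 -0.53). The difference of *Fkbp5* between the lines was not called either (log2 1.55, edgeR adjusted p 0.0548). A whole tumor of the GR KO line still holds host cells with an intact receptor, and their part in these levels was not tested. On its own the GR KO contrast called 7250 of 14152 genes (51.2%). Of 13856 genes tested in both lines, 5413 were called in the same direction, 71.7% of the parental and 76.0% of the GR KO calls, and 20 in opposite directions. These genes were not limited to shared ones. Genes absent from culture pass the filter only through the tumors and can be called only higher, so that these shares are a description and no test of agreement. Of 2700 shared genes lower in parental tumors 1731 were also lower in GR KO tumors, and of 1674 higher 1234 were also higher. The share of all shared genes called in the GR KO contrast is not given here, so these 2 counts are a description as well. The GR KO cells are an edited derivative of the parental line, so that loss of the receptor and other changes in the derivative cannot be told apart.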

How the data were processed

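Deposited files hold gene-level count values for 31 libraries; the authors trimmed 3′-end reads with Trim Galore 0.6.5, aligned them with STAR 2.6.1d to GRCm38 and counted them with featureCounts on Ensembl 75. Groups follow the sample titles. For 5 parental control tumors and 3 parental DMSO cultures, genes with at least 0.5 CPM in at least 3 samples were scaled by TMM and tested by the quasi-likelihood test of edgeR 4.0.16 (R 4.3.3), with Benjamini-Hochberg adjustment over all genes tested. The difference between lines was an interaction term over 16 samples. Alternatives were DESeq2 1.42.0, other scalings, filters and fold thresholds, a replicate block, all 31 samples in the fit and each library left out; leaving out tumor 5 and culture 2 together was added after seeing the data. The text names, for each list, its first 3 members, the most abundant in tumors and the 2 called with the largest difference each way; the 10 most abundant genes absent from culture; the 10 largest rises and falls among shared genes without overlap; *Lrrc32* and *Nr3c1*; and members counted singly. Members and lists were chosen with earlier results of these data known. *Col5a1*, *Actg1*, *Perp*, *Mcm4*, *Col5a2*, *Wnt5a* and 5 genes with promoter windows lie outside this rule and were chosen after their values were seen. A few genes that the rule names are not reported here, and other contrasts of the series are not analysed here.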

Additional observations from a re-analysis of the deposited data

Results flagged for a closer look

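Single samples stood far from the rest of their group for these genes, the gap from the extreme tumor to the next being more than 0.71 of the range over the 5 tumors. Chance alone marks about 1 in 20 groups in this way, 229 groups were examined, and the causes were not tested. Tumor 5 was the high extreme for *S100a8* (712 CPM, others 11.5 to 129.95), *S100a9* (574 CPM, others 5.56 to 104) and *Cpa3* (53.3 CPM, others 19.5 to 26.5). It was also high for the keratinocyte genes *Krt14* (2471 CPM, others 534 to 907), *Krtdap* (424 CPM, others 196 to 257) and *Krt6b* (5257 CPM, others 613 to 1345). The summed keratinocyte list, of which *Krt6b* is not a member, was 7446 CPM in tumor 5 and 3019.9 to 3898 CPM in the others. The summed glycolysis level was 6752 CPM there and 5594 to 5809 CPM in the others, with *Gapdh* at 35.1 CPM against 2.78 to 11.1. *Cnn1* (2.22 CPM, others 0.156 to 0.436) and *Snora16a* (0.377 CPM, others 0) were high in it as well. Tumor 5 was the low extreme for *Cd74* (687 CPM, others 1654 to 1978), *Sox10* (0.528 CPM, others 2.01 to 2.55) and *Ltbp2* (33.0 CPM, others 58.8 to 66.0). Tumor 1 was high for *Myh2* (41.2 CPM, others 19.3 to 25.6), *Per1* (27.0 CPM, others 17.1 to 17.8) and *Dact2* (1.42 CPM, others 0 to 0.145), and low for *Cdh26* (0 CPM, others 0.969 to 1.24). Its summed striated muscle level was 685 CPM (others 521 to 560.5) and its summed YAP and cytoskeleton level 22934 CPM (others 16784 to 17936). Tumor 2 was high for *Adm* (56.2 CPM, others 16.8 to 24.2) and *Snora68* (0.291 CPM, others 0). Tumor 4 was high for *Myh11* (2.85 CPM, others 0.208 to 0.906) and *H2-Q7* (326 CPM, others 180.4 to 203).

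A tested difference between the parental and the GR KO contrast marked the following genes among those named in the results. It is given as log2 of the parental minus the GR KO difference. Over list members of every class, 53 had it lower, 4 higher and 410 were not called. Beside these, 681 of all 15468 genes had it lower and 87 higher (4.97% called). The list count includes members near 0 in culture, which pass the filter with the help of the tumors, and is a description. The 4 higher members, chosen after their values were seen, were *Perp* (3.32), *Mcm4* (2.24), *Col5a2* (1.68) and *Wnt5a* (1.03). The difference was -3.004 for *Lrrc32*, -5.64 for *Fcer1g*, -3.34 for *Laptm5* and -3.62 for *Csf1r*. *Laptm5* was near 0 in cultures, at 0.449 CPM in parental and 0.0847 CPM in GR KO ones, and *Csf1r* at 0.680 and 0.0533 CPM. Both passed the filter with the help of the tumors and rest on few culture counts, so that their values are a description. Matrix and secretory genes gave -4.23 for *Col1a1*, -3.40 for *Col6a3*, -5.56 for *Rcn3* and -2.78 for *Tgfbi*. Immune genes gave -2.44 for *H2-K1*, -1.71 for *Stat2*, -2.79 for *Ifit1*, -3.21 for *Ifit3*, -4.47 for *Rsad2* and -3.45 for *Lsp1*. For *Egfl7* it was -2.37, for *Sox9* -1.28, for *Atp2b4* -2.10 and for *Cyr61* -1.39. Metabolic genes gave -1.01 for *Hk1*, -1.93 for *Slc16a3*, -1.10 for *Hmgcs1* and -1.99 for *Fdft1*. Stress genes gave -1.23 for *Atf4* and -1.90 for *Ddit3*, and the RNA gene *Rpph1* gave -3.03. The value of -6.40 for *Hba-a1* and that of -11.82 for *Gpr97* are fitted against GR KO cultures at 0 and are no bound. For *Col1a1*, mean levels were 2074 and 1971 CPM in parental and GR KO tumors and 33.1 and 1.66 CPM in the cultures. For *Ddit3* they were 28.3 and 69.9 CPM in tumors and 59.9 and 39.7 CPM in cultures.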

How the results depend on the processing

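The 7999 called genes became 8278 with DESeq2, 8011 with its size factors, 8045 with scaling from shared genes, 8143 with no filter, 7595 with all 31 samples in the fit, 6357 with a fold change of at least 2 and 8306 with no fold minimum. A filter of at least 10 counts in every sample removed absent genes by construction and left 5256 called, 2824 of them higher. A replicate block, although sample numbers do not pair (correlations of same-numbered tumor and culture -0.281, 0.186, 0.0969), gave 6930, with 4322 higher and 2608 lower, and 836 for the difference between lines. Leaving out 1 library gave 7004 to 7943 called, 4419 to 4902 higher, 2585 to 3104 lower and 1475 to 1898 absent genes. Absent genes numbered 5528 with no filter and 1073 with at least 10 counts in every tumor, by construction. The difference between lines ranged from 383 to 2223 when 1 library was left out and was 1491 with DESeq2; the cause was not tested. Leaving out tumor 5 and culture 2 together, chosen after seeing the data, gave 7500. Signs turned for genes with no call: with scaling from shared genes *Flt1* 0.15, *Egfl7* 0.15 and *Atf5* 0.18; with at least 10 counts 0.00198, 0.00946 and 0.0459; *Atf5* 0.0786 with the block, 0.00474 without tumor 4, 0.17 without culture 2 and 0.20 without tumor 5 and culture 2, against -0.24 without culture 3; *Fbln2* 0.0860 without both; *Arhgdib* -0.00569 without tumor 2, against 0.26 without culture 2; *Vegfa* -0.0188 without culture 1; *Hk2* -0.0344 without tumor 1, against 0.16 without tumor 3. Depth limits the bounds for genes near the floor, and 3 cultures limit the spread that can be measured. Bulk RNA of whole tumors does not assign a shared gene to cancer or host cells, and no purified tumor cells were used here. Calls were also lost for *Nr3c1*, *Slc16a3* and *Sgk1* with the block and for *Sgk1* with at least 10 counts, as well as for *Sgk1* and *Ctgf* with all 31 samples; *Klf4* was called with DESeq2, with no filter and with the block. Tumors and cultures were collected in different ways, so that values shared by all samples of a group, such as those of short RNAs, may carry this difference as well.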
